A study of Mus musculus with 4 samples.

Results

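Smooth muscle cells shorten with a shared kit of proteins, and 33 genes of that kit were followed through the cells of hypoxic mouse lungs. The genes were taken by symbol from a list of contractile and cytoskeletal muscle genes, and all 33 were found among the 31253 genes counted in each of 4 single-cell RNA libraries. Of these libraries, 2 came from WT mice and 2 from Vegfr2Y949F mice, called mutant below. In the mutant's name, Y949F stands for tyrosine exchanged for phenylalanine in VEGFR2, a receptor for VEGF-A found on endothelial cells. All mice had the C57BL/6J background, were 6 to 8 weeks old per the labels, and had been kept in hypoxia for 6 weeks. Lungs of 2 mice were pooled in every library. The libraries carry a set letter, A or B, once in each genotype, and the labels do not explain it. The sex of the mice and the zygosity of the mutation were not given in the labels, and no normoxic lung was analysed here.

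In smooth muscle, thin filaments of actin and tropomyosin slide along myosin once a calcium-activated kinase has phosphorylated the myosin light chain, and a phosphatase reverses the step. Dense bodies, desmin filaments and integrin adhesions anchor the filaments to the cell and its matrix. The nuclear factor SRF and its muscle co-activator myocardin switch many of these genes on through a short promoter element, the CArG box. In the lung, such cells surround airways and arteries, pericytes wrap capillaries, and myofibroblasts lie at alveolar openings. Hypoxia is known to add muscle to small lung arteries.

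The promoter table from RefSeq (build GRCm38.p6, 250 bases before to 50 after each gene's start) held 28 of the 33 genes. An exact CArG box was found in the promoters of 6 of those 28, Actc1, Ldb3, Myl6, Myl9, Srf and Vcl. The same search found it in 1.63% of all 32851 promoters in the table, or in 1.81% of its 27025 genes. The CArG box is 10 letters long, CC and GG around 6 letters that are A or T, and reads alike on both strands, so each match counts for both. With 1 G or C allowed among the 6 middle letters, Acta2, Itga5 and Pdlim3 joined, giving 9 of 28 genes, against 11.3% of all genes and 9.98% of all promoters. The promoters of Actg2, Itga7, Myh11, Myocd and Tagln were not analysed here. A match is a description of the letters and says nothing of binding.

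The stretches below are shown because they carry the boxes of the muscle actins, a myosin light chain, an adhesion protein and SRF itself. Capitals mark each exact or 1-letter-off CArG box, and all run 5′ to 3′ on the gene's strand. Acta2 and Actc1 hold the same 10 letters at their first box, which lies 84 bases before the start in Acta2 and 175 bases before it in Actc1. The Srf boxes, at 82 and 62 bases before its start, are both exact.
Acta2, chr19:34255353-34255502, minus strand: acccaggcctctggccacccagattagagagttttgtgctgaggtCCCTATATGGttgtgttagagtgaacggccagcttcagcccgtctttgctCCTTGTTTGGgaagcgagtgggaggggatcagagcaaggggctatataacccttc
Actc1, chr2:114052868-114053095, minus strand: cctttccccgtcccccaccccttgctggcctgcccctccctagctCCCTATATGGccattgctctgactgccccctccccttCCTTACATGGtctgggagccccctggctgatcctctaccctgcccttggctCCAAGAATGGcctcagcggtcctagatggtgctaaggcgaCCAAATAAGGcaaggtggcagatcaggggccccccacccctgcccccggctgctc
Myl9, chr2:156775258-156775419, plus strand: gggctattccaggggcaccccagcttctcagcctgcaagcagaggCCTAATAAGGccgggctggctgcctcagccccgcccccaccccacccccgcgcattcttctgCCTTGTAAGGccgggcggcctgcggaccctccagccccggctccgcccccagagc
Vcl, chr14:20929148-20929225, plus strand: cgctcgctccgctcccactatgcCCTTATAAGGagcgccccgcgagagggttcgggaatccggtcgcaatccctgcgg
Srf, chr17:46556170-46556289, minus strand: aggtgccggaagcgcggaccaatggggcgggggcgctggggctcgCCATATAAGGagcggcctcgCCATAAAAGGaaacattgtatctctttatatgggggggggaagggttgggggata

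Cells were named from marker genes that are not members, and the members were also kept out of the genes used for clustering. This left 213 smooth muscle cells, 752 pericytes, 242 myofibroblasts, 4046 alveolar fibroblasts and 735 adventitial fibroblasts among 41248 kept cells. Kept cells numbered 9304 to 11446 per library, with medians of 4312 to 5548.5 UMIs (unique molecular identifiers, each a counted RNA molecule), and 23 to 42 barcodes were shared by each pair of libraries. In the naming, 8 of 12 smooth muscle markers passed the cut of 20% of cells in the smooth muscle cluster. None of the 12 was among the 10 leading genes of that cluster. The marker score used for naming was 0.758 for smooth muscle and 0.567 for pericytes, the next type. In the summed smooth muscle cells all 12 markers had UMIs, at a sum of 1169 to 1358 CPM per library. The same sum was 736 to 850 CPM in pericytes, where Nrip2, Map3k7cl, Casq2 and Sost were at 0, and 150.2 to 234 CPM in myofibroblasts. Pericyte markers were also read in the smooth muscle cells, at 3573 to 4595 CPM against 17710 to 20221 CPM in pericytes, and their part in the results was not tested. Of 8 markers of skeletal or cardiac muscle, 4 were detected in the smooth muscle cells, at a sum of 20.4 to 49.4 CPM, and Myh6, Myl7, Ckm and Acta1 were at 0. Smooth muscle cells were counted as 60 in WT A, 58 in WT B, 57 in mutant A and 38 in mutant B. That is 0.556%, 0.597%, 0.498% and 0.408% of kept cells (exact 95% intervals 0.425 to 0.716%, 0.454 to 0.771%, 0.377 to 0.645% and 0.289 to 0.560%, counting error only). Both mutant libraries lay below both WT libraries, and the exact permutation test, two-sided, gave p = 0.33, the smallest that 2 against 2 libraries allow.

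Levels below are UMIs scaled to a common library total (CPM, counts per 1 M UMIs) of the summed cells of a type in a library. Values in fours are in the order WT A, WT B, mutant A and mutant B, and a mean ± SD is over these 4 libraries. Differences between types are log2 values from edgeR's quasi-likelihood test on the sums, with library as a term, and a gene was called at a Benjamini-Hochberg adjusted p under 0.05. Counts are of 3′ ends and are not scaled by gene length. Where levels of different genes are compared, the comparison is of UMI counts only.

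Together the 33 members made up 4.77 ± 0.493% of all UMIs in smooth muscle cells. Their share was 1.57 ± 0.216% in myofibroblasts and 1.06 ± 0.0747% in pericytes. In alveolar fibroblasts it was 0.528 ± 0.00765%, and in the general capillary, aerocyte, arterial and venous cells together 0.334 ± 0.0380%. The 4 smooth muscle values, 4.48%, 5.08%, 4.24% and 5.29%, all stood above every value of any other type. Over 21 named types, smooth muscle cells held the highest mean level for 28 of the 33 members. The exceptions were Ppp1r14a (highest in pericytes), Pdlim3 (myofibroblasts), Itga5 (interstitial macrophages), Pgm5 (venous endothelial cells) and Srf (ciliated cells).

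**Figure D1:**
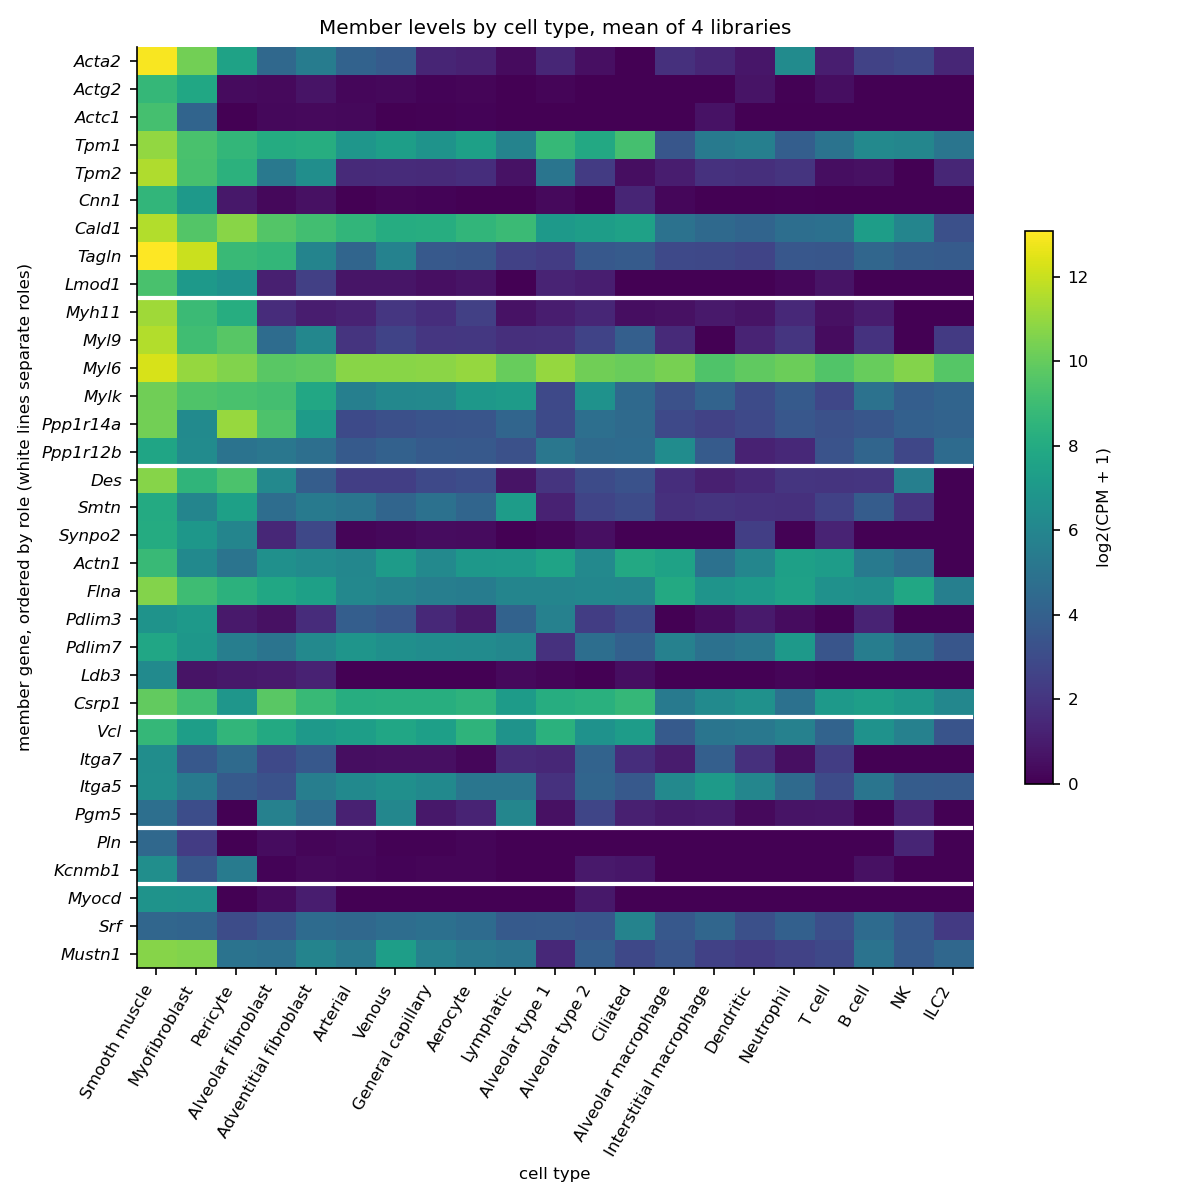
Mean level of each of the 33 members (rows, grouped by role) in 21 named cell types (columns), as log2(CPM + 1) over 4 libraries. The smooth muscle column is the brightest for 28 of 33 members, while Myl6 is bright in every type and Ppp1r14a is brightest in pericytes.

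Of the 30 members that passed the count filter against pericytes, 28 were higher and 1 lower in smooth muscle cells. Over all 7346 genes tested, 19.6% were called higher and 15.8% lower. The members' median log2 difference was 2.85, against about 0 for all genes. Against myofibroblasts, 27 of 30 members were higher and 0 lower in smooth muscle cells, where 20.3% of 4731 genes were called higher and 21.1% lower. The median of the members was 1.46, against 0.03 for all genes. Pln, Srf and Pgm5 did not pass the filter in these fits. A gene could pass through its counts in smooth muscle cells alone, as Actc1 and Myocd did with 0 UMIs in pericytes. For members so kept the direction was fixed by the filter, and they are part of the counts and medians above. In the genotype fits below, which held a single type each, 23 members passed in pericytes and 26 in myofibroblasts. Between myofibroblasts and alveolar fibroblasts, 22 of 30 members were higher and 4 lower in myofibroblasts, with 16.1% and 17% of 10768 genes called in those directions, and Actc1, Pln and Ldb3 did not pass the filter. Here too a member could pass through its counts in 1 type alone. The direction of members so kept was fixed by the filter, and they are part of these counts. In the genotype fit of alveolar fibroblasts 24 members passed.

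Of the thin filament genes, Tagln and Acta2 had the most UMIs in smooth muscle cells. Acta2 encodes smooth muscle alpha-actin and lies on chromosome 19 (mm10, 34241090 to 34255590, minus strand). It stood at 7167, 9215, 6049 and 9342 CPM in smooth muscle cells, 1069.9, 1359, 821 and 1768 CPM in myofibroblasts and 213, 228, 120.4 and 179 CPM in pericytes. The 3 types did not overlap, and Acta2 was higher in smooth muscle cells by 5.59 ± 0.15 (adjusted p = 6.30e-55) than in pericytes and by 2.51 ± 0.12 (adjusted p = 1.50e-10) than in myofibroblasts. After thinning every cell to 2000 UMIs, 95.2% of smooth muscle cells (exact 95% interval 91.2 to 97.8%, 189 cells deep enough) had an Acta2 UMI, against 53.5% of myofibroblasts and 15.4% of pericytes. In general capillary cells, which should lack it, the share was 0.376%, below the share in pericytes. Median depths were 5603, 4712.5, 4573 and 4571 UMIs in these 4 types. Without thinning the shares were 99.1%, 63.6%, 23.3% and 0.827%.

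Tagln encodes transgelin (SM22), an actin-binding protein of smooth muscle (chromosome 9, 45929619 to 45936058, minus strand). Its levels were 7752, 9772, 7174 and 9775 CPM in smooth muscle cells and 4795, 4693, 2691 and 4485 CPM in myofibroblasts. These ranges did not overlap, with a log2 difference of 0.89 ± 0.12 (adjusted p = 1.40e-05). Pericytes held 618, 643, 271 and 349 CPM and alveolar fibroblasts 429.8, 398, 343 and 447 CPM, ranges that overlap. Because alveolar fibroblasts were numerous, they held 32.8% of all Tagln UMIs of kept cells, against 29.6% in smooth muscle cells. Tagln overlaps Pcsk7 and 1 other gene, both on the opposite strand, and whether the counting used strand was not given in the sources used here.

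Actc1 and Actg2, the cardiac and enteric muscle actins, were found mainly in smooth muscle cells. Actc1 stood at 415, 633, 478 and 814 CPM there, at 0, 32.8, 8.50 and 28.3 CPM in myofibroblasts, and at 0 UMIs of 3523559 in pericytes. Against 3 counts over all pericytes, the level in smooth muscle cells was at least 677-fold higher, and it was higher than in myofibroblasts by 4.70 ± 0.26 (adjusted p = 9.32e-10). Actc1 could pass the filter of that fit through smooth muscle cells alone, so the test adds no support for the direction. Smooth muscle cells held 93.2% of all Actc1 UMIs of kept cells, yet only 22.8% of those cells had an Actc1 UMI after thinning. Actg2 stood at 297, 498, 378 and 519 CPM in smooth muscle cells and 192, 131, 166 and 402 CPM in myofibroblasts. The Actg2 ranges overlapped, with mutant B myofibroblasts above 2 of the smooth muscle sums, and the difference was 0.85 ± 0.22 (adjusted p = 0.00533). Without WT B it was 0.45 and not called (adjusted p = 0.0725). Pericytes held 1 Actg2 UMI. Over the whole of the longest transcripts, 1.30% of 31-base words of Acta2, 0.832% of Actc1 and 0.767% of Actg2 occurred in another actin's transcript (GENCODE M21). In the last 500 bases this was so for 0% of the words of Acta2 and 0.426% of those of Actc1 and Actg2.

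Calponin (Cnn1), which binds actin and tropomyosin and marks differentiated smooth muscle, stood at 252, 391, 324 and 581 CPM in smooth muscle cells. It was at 159, 119.7, 55.3 and 184 CPM in myofibroblasts, with 3 UMIs in all pericytes together. The tropomyosins differed in reach. Tpm2 stood at 2627, 3459, 1984 and 3733 CPM in smooth muscle cells, 620.4 ± 185 CPM in myofibroblasts and 333 ± 93.9 CPM in pericytes. Tpm1 stood at 1719, 1975, 2017 and 2093 CPM in smooth muscle cells but was read in every named type. Caldesmon (Cald1), which restrains actin-myosin sliding, was at 3323, 2909, 3448 and 2657 CPM in smooth muscle cells and 1896, 1639, 1698 and 1683 CPM in pericytes, higher in the former by 1.00 ± 0.11 (adjusted p = 1.18e-12). Leiomodin (Lmod1), which nucleates actin filaments, stood at 757, 534, 547 and 711 CPM in smooth muscle cells. Its other means were 135 ± 51.5 CPM in myofibroblasts and 101 ± 19.7 CPM in pericytes, and all 3 of Lmod1, Tpm1 and Tpm2 were called higher in smooth muscle cells in both comparisons.

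Among the myosin genes, Myh11 (smooth muscle myosin heavy chain, chromosome 16, 14194535 to 14291372, minus strand) stood at 2109, 2220.1, 2468 and 2633 CPM in smooth muscle cells. Myofibroblasts held 521, 472, 459 and 442 CPM and pericytes 324, 259.9, 283 and 258 CPM. All smooth muscle values lay above all others, with differences of 3.23 ± 0.13 (adjusted p = 1.04e-41) from pericytes and 2.14 ± 0.13 (adjusted p = 2.80e-09) from myofibroblasts. After thinning, a Myh11 UMI was seen in 84.1% of smooth muscle cells, 37.1% of myofibroblasts and 41.3% of pericytes. It was seen in 0.248% of alveolar fibroblasts and 0.370% of general capillary cells. The regulatory light chain Myl9 (chromosome 2, 156775420 to 156781658, plus strand), whose promoter stretch is printed above, stood at 3183, 3394, 2414 and 3091 CPM in smooth muscle cells. Pericytes held 993, 934, 593 and 705 CPM and myofibroblasts 476, 603, 399.7 and 646 CPM, and the last 2 ranges overlapped. The essential light chain Myl6, which many cells use for non-muscle myosin too, stood at 4659, 5246, 4449 and 5384 CPM in smooth muscle cells and 1838 ± 250.2 CPM in endothelial cells, which held 65.3% of its UMIs.

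Among the genes that set light chain phosphorylation, Mylk (myosin light chain kinase) stood at 1243, 1035, 1552 and 1038 CPM in smooth muscle cells, 934, 617, 706 and 561 CPM in myofibroblasts, 661, 525, 814 and 543 CPM in pericytes and 606, 478, 678 and 547 CPM in alveolar fibroblasts. It was higher in smooth muscle cells than in pericytes by 1.11 ± 0.11 (adjusted p = 1.08e-14). Ppp1r14a encodes CPI-17, an inhibitor of the myosin phosphatase (chromosome 7, 29289308 to 29293801, plus strand). Its levels were 1942, 2342, 1915 and 2194 CPM in pericytes, 1285, 1345, 1276 and 1177 CPM in smooth muscle cells, 675, 685, 696 and 723 CPM in alveolar fibroblasts and 56.6, 68.0, 97.8 and 76.5 CPM in myofibroblasts. None of these 4 ranges overlapped. Ppp1r14a was thus the 1 member called lower in smooth muscle cells than in pericytes, by -0.55 ± 0.11 (adjusted p = 2.97e-05), while it was higher than in myofibroblasts by 3.90 ± 0.17 (adjusted p = 9.86e-11). A Ppp1r14a UMI was seen in 96.2% of thinned pericytes, 85.7% of smooth muscle cells, 68.8% of alveolar fibroblasts and 9.39% of myofibroblasts. Ppp1r12b, a targeting subunit of the same phosphatase, stood at 189, 236, 188 and 196 CPM in smooth muscle cells, 79.2 ± 24.6 CPM in myofibroblasts and 30.3 ± 8.70 CPM in pericytes, and was called higher in smooth muscle cells against both.

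**Figure D2:**
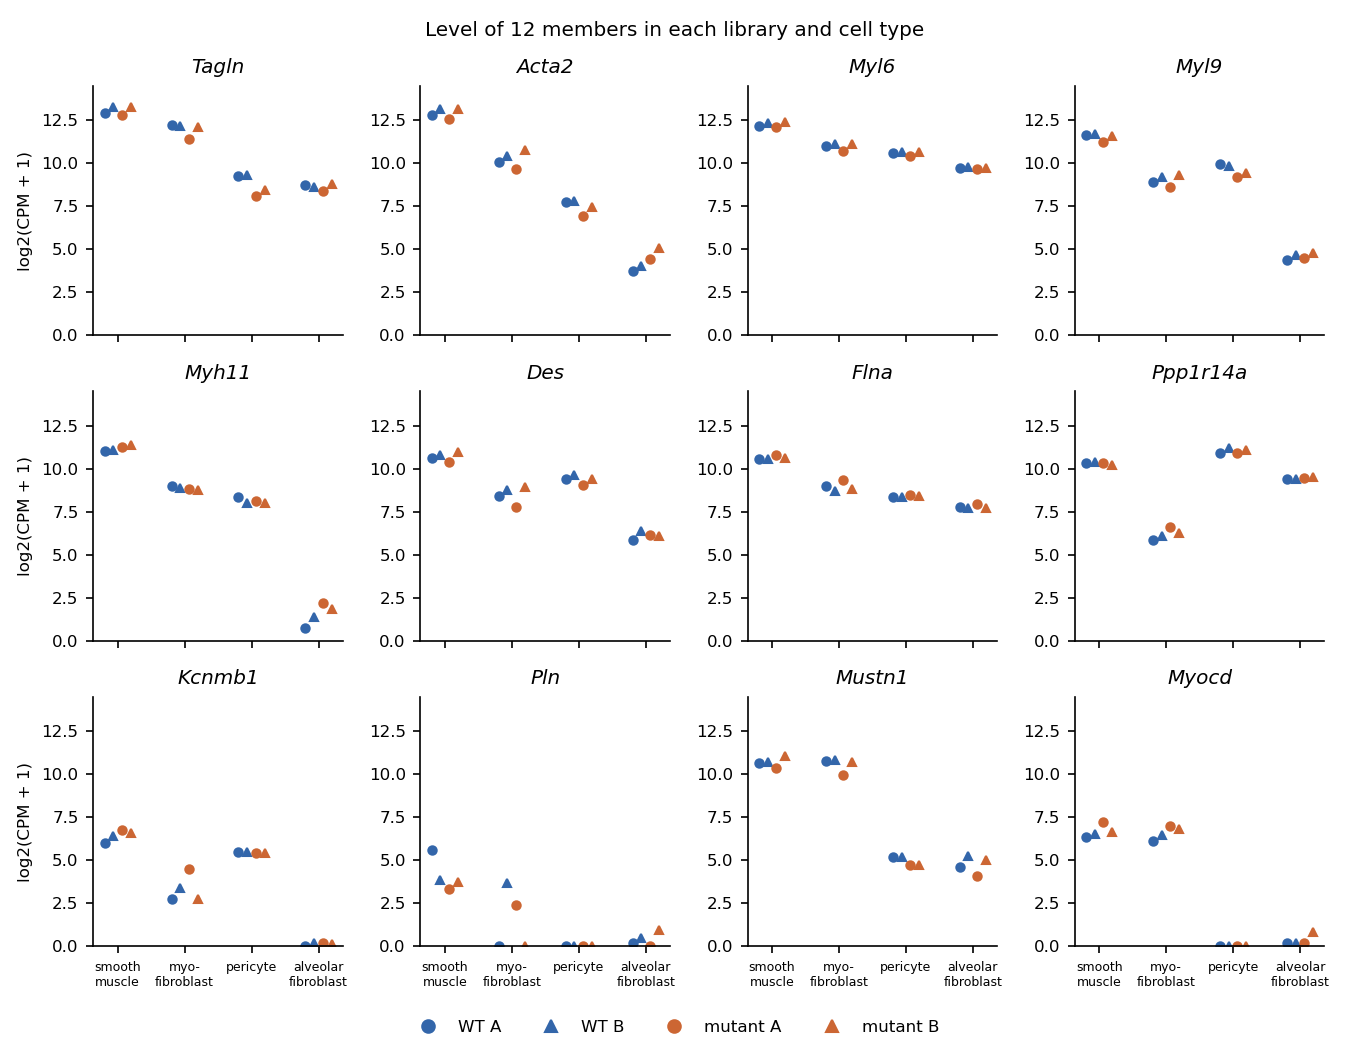
Level of 12 members as log2(CPM + 1) in each of 4 libraries (circles set A, triangles set B, WT blue, mutant orange) in 4 cell types. Smooth muscle points lie highest except for Ppp1r14a, where pericytes lie highest, and for Mustn1, Myocd and Pln, where points of another type lie among them.

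Among the dense-body and filament genes, desmin (Des), the muscle intermediate filament protein, stood at 1598, 1776, 1331 and 1983 CPM in smooth muscle cells. Pericytes held 671, 784, 531 and 681 CPM and myofibroblasts 345, 434, 217 and 487 CPM, without overlap between these 2 types. Des was higher in smooth muscle cells than in pericytes by 1.49 ± 0.11 (adjusted p = 3.80e-21). The actin crosslinker filamin A (Flna) stood at 1502, 1513, 1754 and 1569.9 CPM in smooth muscle cells and 326, 325, 354 and 344 CPM in pericytes, a difference of 2.40 ± 0.12 (adjusted p = 4.43e-34). Alpha-actinin 1 (Actn1), which bundles actin at dense bodies, stood at 383, 465, 520.2 and 511 CPM in smooth muscle cells and 29.5, 32.6, 31 and 33.2 CPM in pericytes. That difference was 4.05 ± 0.15 (adjusted p = 3.61e-43), and from myofibroblasts it was 2.56 ± 0.18 (adjusted p = 1.41e-08).

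Smoothelin (Smtn), which binds actin in contractile smooth muscle, stood at 278, 207, 272 and 262 CPM in smooth muscle cells. Pericytes held 182, 128, 198 and 177 CPM, a step of 0.74 ± 0.13 (adjusted p = 9.94e-07). Synaptopodin 2 (Synpo2) stood at 249, 231, 263 and 323 CPM in smooth muscle cells, with 119.9 ± 14.4 CPM in myofibroblasts and 61.2 ± 9.06 CPM in pericytes. The LIM protein Csrp1 stood at 1039, 941, 808 and 1165 CPM in smooth muscle cells, but alveolar fibroblasts were close, at 876, 884, 672 and 920.4 CPM. Pericytes held 114 ± 18.1 CPM of Csrp1. Among the PDZ and LIM genes, which tether signalling proteins to actin, Ldb3 stood at 92.7, 69.6, 90.7 and 53.1 CPM in smooth muscle cells, with 1 UMI in all myofibroblasts and 3 in all pericytes. Pdlim7 stood at 173, 204, 248 and 225 CPM in smooth muscle cells and 121 ± 27.7 CPM in myofibroblasts, a difference of 0.66 ± 0.18 (adjusted p = 0.00681). Pdlim3 stood at 95.9, 126, 60.5 and 139 CPM in smooth muscle cells and 159, 138, 63.8 and 153 CPM in myofibroblasts. The Pdlim3 ranges overlapped, the difference of -0.43 ± 0.19 (adjusted p = 0.0866) was not called, and pericytes held 3 UMIs. With the members among the clustering genes, Pdlim3 was called lower in smooth muscle cells (-0.53, adjusted p = 0.0346). DESeq2 and the fit without WT B did not call Pdlim7 against myofibroblasts (adjusted p = 0.100 and 0.0908).

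At the adhesions, vinculin (Vcl), which links integrins to actin, stood at 422, 326, 544 and 376 CPM in smooth muscle cells and 403, 368, 385 and 383 CPM in pericytes. These ranges overlapped, and the difference of 0.26 ± 0.12 (adjusted p = 0.0795) was not called. The laminin receptor subunit Itga7 stood at 95.9, 76.3, 90.7 and 69.5 CPM in smooth muscle cells, 21.7 ± 4.83 CPM in pericytes and 11.1 ± 11.1 CPM in myofibroblasts. The fibronectin receptor subunit Itga5 stood at 35.1, 78.6, 93.8 and 143 CPM in smooth muscle cells, 12 ± 5.68 CPM in pericytes and 138 ± 28.6 CPM in interstitial macrophages. Endothelial cells held 74.6% of all Itga5 UMIs. Itga5 was called higher in smooth muscle cells than in myofibroblasts (1.02 ± 0.28 (adjusted p = 0.00764)), but not by DESeq2 (adjusted p = 0.145) and not without WT B or mutant B (adjusted p = 0.0606 and 0.105). Pgm5, an adhesion protein related to phosphoglucomutase, stood at 16.0, 13.5, 30.2 and 45 CPM in smooth muscle cells and was at 0 in pericytes. Alveolar fibroblasts held more Pgm5, 58.2, 47.7, 56.3 and 49.5 CPM.

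For calcium handling, Kcnmb1, the beta subunit that tunes the large-conductance calcium-activated potassium channel, stood at 63.9, 85.3, 109 and 94.0 CPM in smooth muscle cells. Pericytes held 43.8, 43.9, 41.7 and 41.7 CPM and myofibroblasts 5.66, 9.39, 21.3 and 5.67 CPM, so pericytes lay between the other two without overlap. Kcnmb1 was higher in smooth muscle cells by 1.19 ± 0.20 (adjusted p = 4.26e-07) than in pericytes and by 2.91 ± 0.34 (adjusted p = 4.61e-06) than in myofibroblasts. Against myofibroblasts it could pass the filter through smooth muscle cells alone, so that test adds no support for the direction. Phospholamban (Pln), which restrains the calcium pump of the sarcoplasmic reticulum, had 27 UMIs in smooth muscle cells, 47.9, 13.5, 9.07 and 12.3 CPM. Pericytes had 0, so the level in smooth muscle cells was at least 23.8-fold higher against 3 counts over all pericytes. Of the 27 UMIs, 15 were in WT A, and without WT A the bound was 9.96-fold.

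Of the nuclear genes, Myocd and Mustn1 grouped myofibroblasts with smooth muscle cells. Myocardin (Myocd, chromosome 11, 65176561 to 65269989, minus strand) stood at 79.9, 89.8, 148 and 98.1 CPM in smooth muscle cells and 67.9, 89.2, 128 and 113 CPM in myofibroblasts. The ranges overlapped, with a difference of -0.13 ± 0.19 (adjusted p = 0.628) that was not called. Pericytes had 0 Myocd UMIs of 3523559, which puts smooth muscle cells at least 122-fold higher against 3 counts over all pericytes (79.4-fold without mutant A). In the cells of alveolar fibroblasts 11 Myocd UMIs were found. Mustn1, a small muscle nuclear protein, stood at 1636, 1661, 1304 and 2101 CPM in smooth muscle cells and 1761, 1835, 1012 and 1692 CPM in myofibroblasts, again overlapping, with a difference of -0.08 ± 0.12 (adjusted p = 0.641). For both genes the mean CPM was higher in smooth muscle cells, opposite in sign to the scaled log2 difference, and neither direction was called. In pericytes Mustn1 stood at 35.7, 34.9, 25.0 and 25.8 CPM, lower than in smooth muscle cells by 5.92 ± 0.16 (adjusted p = 9.34e-55) on the log2 scale. SRF itself was spread over all types: Srf stood at 22.4, 20.2, 9.07 and 24.5 CPM in smooth muscle cells (25 UMIs) and at 55.8 ± 18.1 CPM in ciliated cells.

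Myofibroblasts were also compared with alveolar fibroblasts. Against alveolar fibroblasts, Acta2 was higher by 6.04 ± 0.17 (adjusted p = 2.49e-42), Tagln by 3.39 ± 0.12 (adjusted p = 1.64e-35) and Mustn1 by 5.94 ± 0.15 (adjusted p = 1.79e-44). The 4 members lower in myofibroblasts were Ppp1r14a (-3.16 ± 0.17 (adjusted p = 4.94e-26)), Pgm5 (-3.05 ± 0.39 (adjusted p = 9.38e-10)), Csrp1 (-0.60 ± 0.13 (adjusted p = 1.08e-04)) and Vcl (-0.54 ± 0.15 (adjusted p = 0.00385)). Myofibroblasts held 0.203% of all Pgm5 UMIs of kept cells. Pgm5 could pass the filter through alveolar fibroblasts alone, so its test adds no support for the direction. Mylk was called higher (0.32 ± 0.13 (adjusted p = 0.0459)) but lost the call with DESeq2, without the count filter and without WT A, WT B or mutant B (adjusted p = 0.0512 to 0.300). Cald1 (0.08 ± 0.13 (adjusted p = 0.677)), Actn1 (-0.33 ± 0.18 (adjusted p = 0.15)), Itga7 (1.06 ± 0.52 (adjusted p = 0.115)) and Srf (0.71 ± 0.40 (adjusted p = 0.179)) were not called, but Itga7 was without WT A (1.34, adjusted p = 0.0487).

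**Figure D3:**
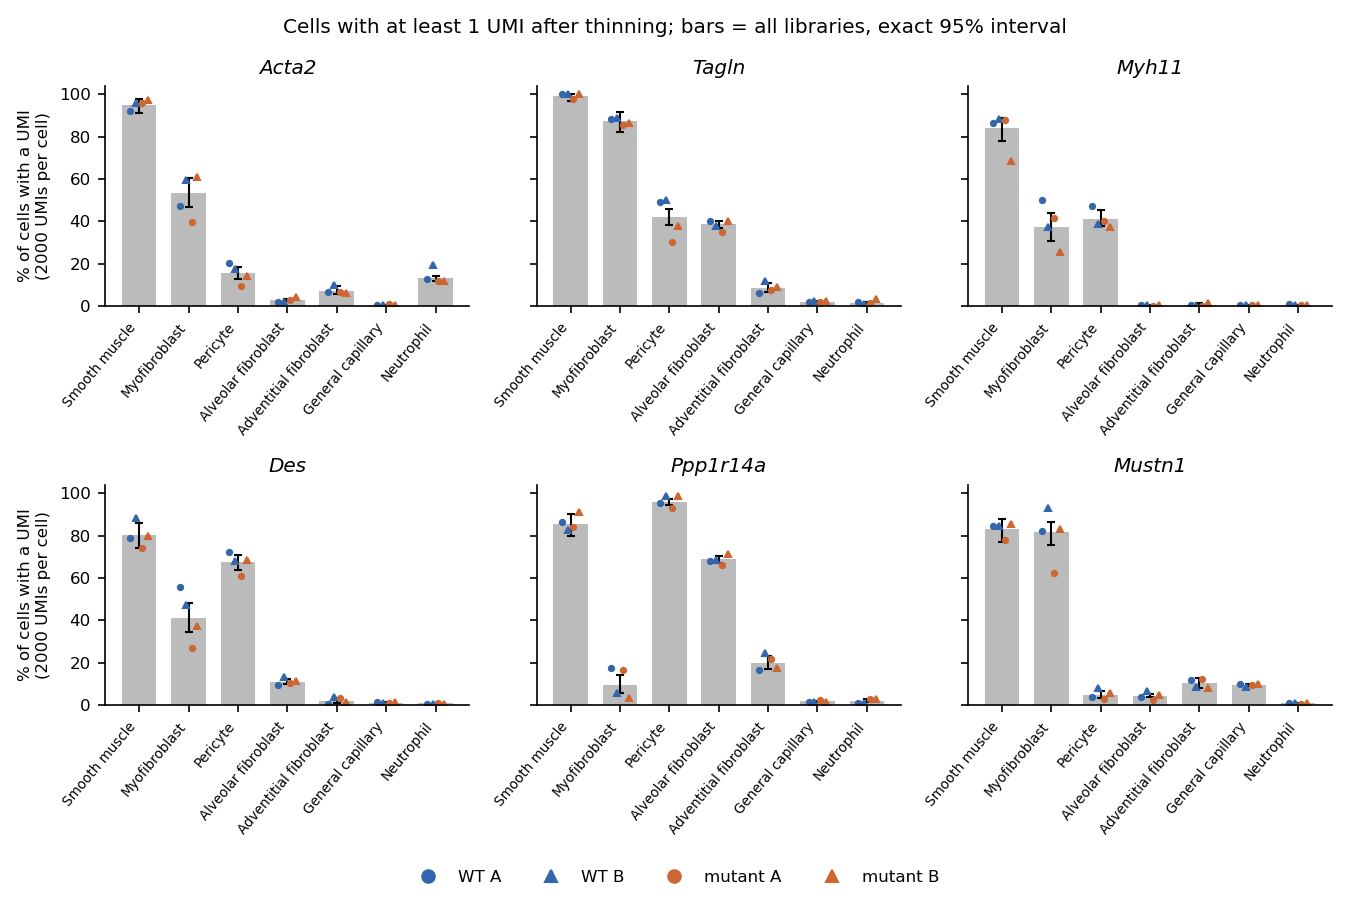
Share of cells with at least 1 UMI of 6 members in 7 cell types, after thinning each cell to 2000 UMIs. Bars are all libraries together with the exact 95% interval, and points are single libraries; Ppp1r14a is seen in 96.2% of pericytes and 9.39% of myofibroblasts, and Mustn1 in 81.7% of myofibroblasts and 4.85% of pericytes.

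The other genes of the contractile pathway, a list of 42 that holds phosphatase subunits, cytoplasmic actins, non-muscle myosins and adhesion linkers, was compared in the same fits. Of 39 tested against pericytes, 26 were higher and 7 lower in smooth muscle cells, with a median log2 difference of 0.95. Of 38 tested against myofibroblasts, 26 were higher and 4 lower, with a median of 0.70. Of 42 tested between myofibroblasts and alveolar fibroblasts, 23 were higher and 4 lower in myofibroblasts. Palladin (Palld), an actin bundler, stood at a mean of 473 CPM in smooth muscle cells and 21.3 CPM in pericytes. Itga1, a collagen receptor subunit, went the other way, with 945 CPM in smooth muscle cells and 2515 CPM in pericytes, and 46.2 CPM in myofibroblasts. These 2 genes were named after their values were seen.

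The second question was whether the members differed between WT and mutant lungs. In each of 6 cell types, edgeR called 0 members at an adjusted p under 0.05, and so did DESeq2. In edgeR's main fit the smallest adjusted p of the 30 members tested in smooth muscle cells was 1.00, and the same held for 23 in pericytes, 26 in myofibroblasts, 24 in alveolar fibroblasts, 23 in adventitial fibroblasts and 26 in endothelial cells. The adjustment runs over all genes of a fit. With the set letter as a term, 1 member was called in pericytes and 1 in alveolar fibroblasts, as given below. Over all genes tested, the calls were 0 of 5074 in smooth muscle cells (0%), 0 of 8161 in pericytes (0%) and 0 of 4201 in myofibroblasts (0%). They were 4 of 11949 in alveolar fibroblasts (0.0335%), 1 of 9854 in adventitial fibroblasts (0.0101%) and 0 of 14048 in endothelial cells (0%). At an unadjusted p under 0.05, the members counted 1, 3, 1, 2, 0 and 0 in the same order of types, and of all genes 2.48%, 2.46%, 2.76%, 1.19%, 3.48% and 1.12% passed. The 2 libraries of a genotype are separate pools of 2 mice, and the p-values measure only the spread between such pools.

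In smooth muscle cells, whose sums held 244605 to 445468 UMIs, Acta2 and Tagln were higher in both B libraries than in both A libraries. Acta2 was at 7167 and 6049 CPM in the A libraries and 9215 and 9342 CPM in the B libraries, and Tagln at 7752 and 7174 CPM against 9772 and 9775 CPM. For 9 of 30 members both mutant libraries lay above both WT libraries, and for 2 below, where the shares over all genes were 15.5% and 13.1%. The 9 were Myh11, Tpm1, Flna, Synpo2, Pdlim7, Itga5, Actn1, Myocd and Kcnmb1, and the 2 were Myl9 and Ppp1r14a. The smallest unadjusted p belonged to Itga5, at 35.1, 78.6, 93.8 and 143 CPM, with a log2 difference of 0.96 ± 0.41. Itga5 in smooth muscle cells rested on 112 UMIs. The median log2 difference of the members was 0.08, against 0.01 for all genes.

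In pericytes, 7 of 23 members had both mutant libraries below both WT libraries and 2 had them above, against 12.5% and 16.4% of all genes. The 7 were Tagln, Acta2, Myl9, Tpm2, Lmod1, Mustn1 and Kcnmb1, and the 2 were Flna and Synpo2. Tagln stood at 618 and 643 CPM in the WT libraries and at 271 and 349 CPM in the mutant libraries, a log2 difference of -1.07 ± 0.27. Myl9 stood at 993 and 934 CPM against 593 and 705 CPM (-0.61 ± 0.27). Acta2 stood at 213 and 228 CPM against 120.4 and 179 CPM (-0.60 ± 0.27). These 3 had an unadjusted p under 0.05 in edgeR's quasi-likelihood test, and none passed the adjustment. With the set letter, which the labels do not explain, as a replicate block in the same test, Tagln was called (adjusted p = 7.80e-05). Tpm2 stood at 364 and 423 CPM against 202 and 345 CPM, Lmod1 at 120.2 and 112 CPM against 76.3 and 93.3 CPM, and Mustn1 at 35.7 and 34.9 CPM against 25.0 and 25.8 CPM. Other members of pericytes were close between genotypes, such as Ppp1r14a (1942 and 2342 CPM against 1915 and 2194 CPM) and Vcl (403 and 368 CPM against 385 and 383 CPM). The median over the 23 members was -0.12, against 0.00 for all genes.

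**Figure D4:**
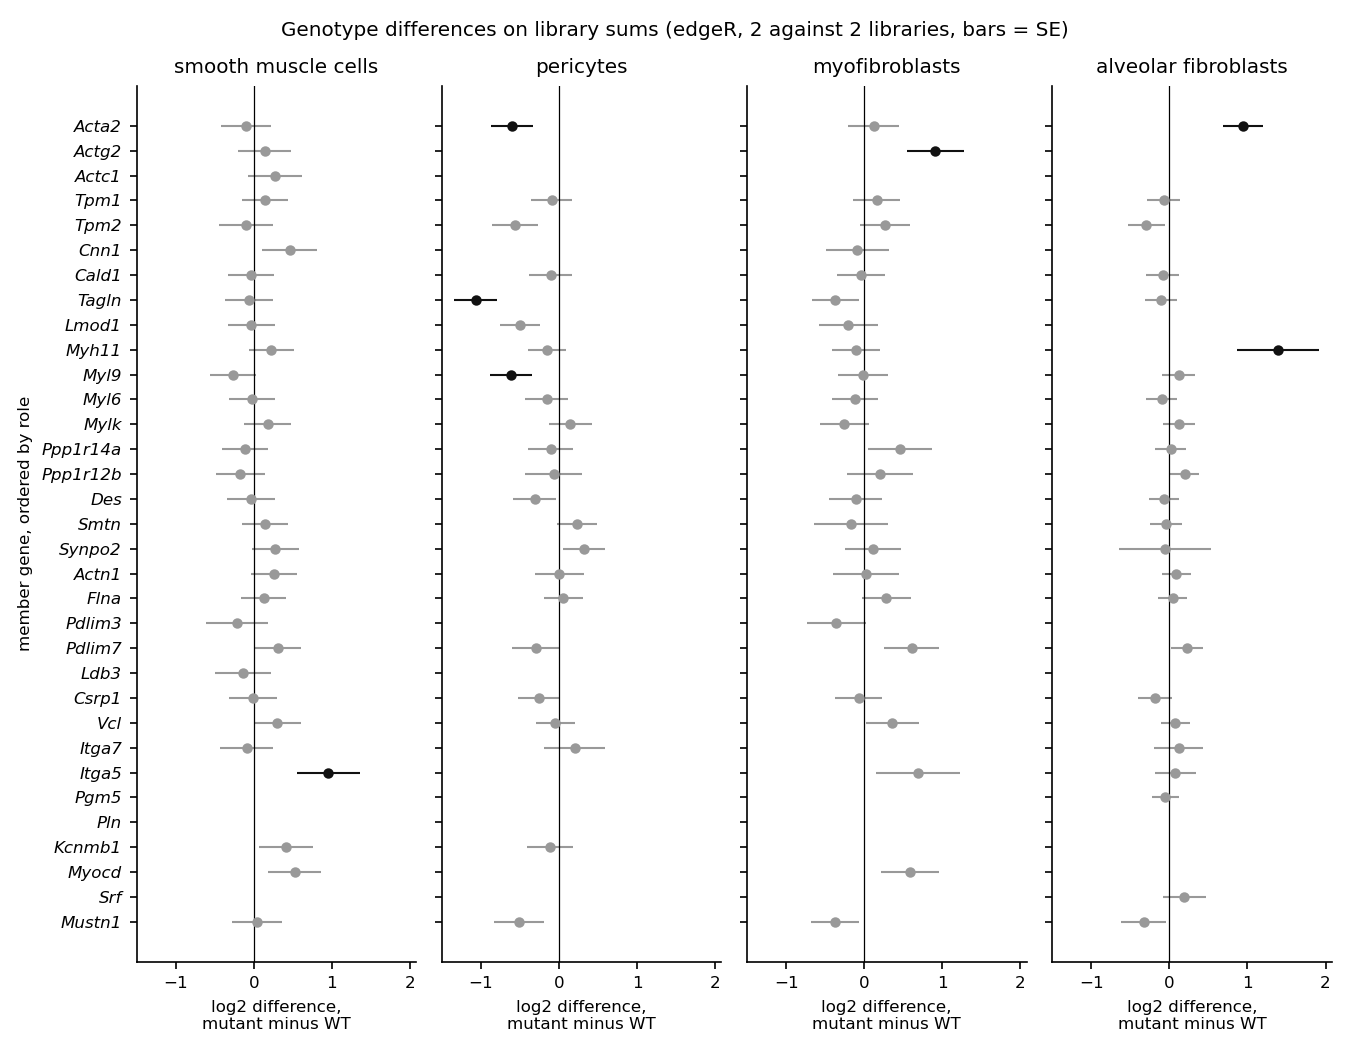
Log2 difference, mutant minus WT, of each member that passed the filter in 4 cell types, from edgeR on 2 against 2 library sums, with bars of 1 SE. Black points have an unadjusted p under 0.05 (Itga5 in smooth muscle cells, Tagln, Myl9 and Acta2 in pericytes, Actg2 in myofibroblasts, Acta2 and Myh11 in alveolar fibroblasts); none passed the adjustment.

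Within pericytes, UMIs of Tagln and Acta2 sat in part of the cells. A Tagln UMI was found in 148 of 229 cells in WT A (64.6%) and 118 of 164 in WT B (72.0%). In the mutant it was found in 84 of 206 cells in A (40.8%) and 88 of 153 in B (57.5%). For Acta2 the shares were 29.7% and 26.8% in WT and 12.1% and 24.8% in mutant libraries. After thinning to 2000 UMIs, the Tagln shares were 49.0%, 50%, 30.4% and 37.9% and the Acta2 shares 20.2%, 17.6%, 9.24% and 14.3%, with both mutant libraries again below both WT libraries. The 5% of pericytes with the most Tagln held 32.8%, 32.0%, 50.7% and 30.3% of its UMIs in the 4 libraries. In mutant A, 1 pericyte held 61 of the 227 Tagln UMIs, and the richest 5% of cells held 85.1% of the Acta2 UMIs. The Tagln UMIs outside the richest 5% of cells came to 416, 438, 134 and 243 per 1 M UMIs of all pericytes, the richest included. The smooth muscle marker sum in pericytes was 821, 736, 850 and 744 CPM, and the markers of club cells, an airway epithelial type, summed to 513, 961, 1192 and 523 CPM. Median depth was 4332 and 5340 UMIs in WT and 3911.5 and 5265 UMIs in mutant pericytes. The part of these in the result was not tested. Acta2 in general capillary cells of the same libraries was at 1.38, 1.66, 2.29 and 1.07 CPM.

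Leaving out pericytes with a UMI of Aoc3, Map3k7cl, Sncg, Mrvi1 or Rbpms2, 5 smooth muscle markers, kept 214, 148, 199 and 147 pericytes. Map3k7cl, at 0 in pericytes, removed no cell, and pericytes that held only other smooth muscle markers were kept. In the text below, this set is the one without pericytes that held smooth muscle marker UMIs. The Tagln difference was then -0.96 ± 0.30 (log2 ± SE), with an unadjusted p of 0.00591 in edgeR's test, and it was not called after adjustment. This set of cells was chosen after the data were seen.

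**Figure D5:**
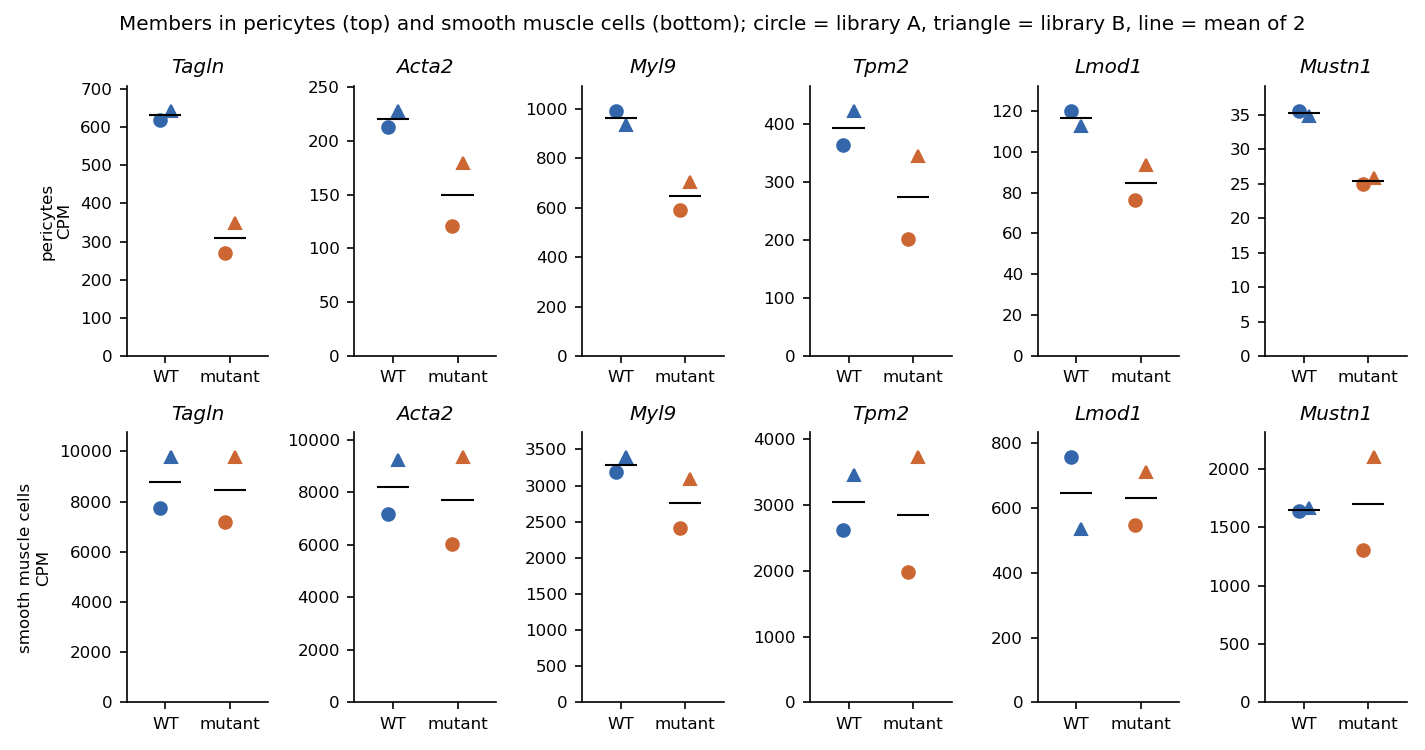
Level in CPM of 6 members in pericytes (top) and smooth muscle cells (bottom) by genotype, with circles for set A, triangles for set B and lines for the mean of 2 libraries; each axis starts at 0. The 6 are among the 7 of 23 tested members with both mutant points below both WT points in pericytes, so the top row shows this by choice of members. In smooth muscle cells it is so for Myl9 among the 6.

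A test of the difference between the 2 genotype differences, smooth muscle cells minus pericytes, covered 32 members and 8370 genes. Tagln was called, with a difference of 1.00 ± 0.20 (log2 ± SE, adjusted p = 0.0379), 1 of 3 genes called in all (0.0358%). The mutant libraries had less Tagln than WT in pericytes by 1.07 on the log2 scale, and in smooth muscle cells they differed by -0.06 ± 0.31. The call did not hold with stricter cells, without WT A, without mutant A, without mutant B or without the pericytes that held smooth muscle marker UMIs (adjusted p = 0.176, 0.529, 0.264, 0.560 and 0.0725). Acta2 (0.50 ± 0.22) and Tpm2 (0.45 ± 0.21) had an unadjusted p under 0.05 and were not called. Over the 32 members tested the median was 0.31, against 0.00 for all genes. It includes Actc1, Myocd and Pgm5, which had 0 UMIs in pericytes and thus no genotype difference there. The median is therefore no measure of a shift across the members.

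In myofibroblasts, with sums of 176645 to 426195 UMIs, both mutant libraries lay above both WT libraries for 5 of 26 members and below for 3, against 13.4% and 15.1% of all genes. The 5 were Vcl, Pdlim7, Ppp1r14a, Itga5 and Myocd, and the 3 were Myh11, Tagln and Mustn1. Actg2 had the smallest unadjusted p, with 192, 131, 166 and 402 CPM and a log2 difference of 0.91 ± 0.37, but its groups overlapped, since mutant A lay below WT A. Without mutant B the difference was 0.09. Red cell markers (haemoglobin genes and Alas2) summed to 11314 CPM in mutant B myofibroblasts and to 11.3, 21.1 and 29.8 CPM in the others. Without cells that held at least 1% haemoglobin UMIs, the Actg2 difference was 0.93 ± 0.38. Mutant A myofibroblasts held the lowest Acta2, Tagln and Mustn1 levels of the 4 libraries (820.6, 2691 and 1012 CPM).

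Alveolar fibroblasts held little Acta2, 12.2, 15.2, 20.5 and 32.9 CPM, and both mutant libraries lay above both WT libraries. The log2 difference was 0.94 ± 0.25, with an unadjusted p of 0.00226 in edgeR's test and no call after adjustment. With the set letter as a replicate block, Acta2 was called. Myh11 was lower still, 0.668, 1.59, 3.60 and 2.68 CPM from 66 UMIs, with a difference of 1.39 ± 0.53. The richest 5% of alveolar fibroblasts held 72.2% to 84.8% of the Acta2 UMIs in every library, and 6.80%, 8.73%, 7.11% and 9.70% of cells had one. With so few cells holding a UMI, much of the share in the richest 5% was fixed by sparse detection. Smooth muscle markers summed to 99.5, 90.7, 100.3 and 96.3 CPM in these cells. Without mutant A the Acta2 difference was called (1.26, adjusted p = 0.00213). Mutant B held 1289 of the 4046 alveolar fibroblasts. In adventitial fibroblasts and in endothelial cells no member had an unadjusted p under 0.05. Of the 42 other pathway genes, 0 were called between genotypes in any of the 6 types, with 1, 1, 0, 0, 3 and 0 at an unadjusted p under 0.05.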

How the data were processed

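Droplet single-cell libraries were made from lungs that, per the labels' protocols, were minced, digested with collagenase and DNase, strained and cleared of red cells. The authors deposited raw UMI counts per gene and cell barcode, made with Cell Ranger 6.1.1 per the file headers; the submitters' processing notes also name the mm10 build, fastp, UMI-tools and Seurat 4.1.0, and give no strand setting. The libraries held 83606389 to 96521589 UMIs.

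From these counts, barcodes with at least 500 genes, at least 1000 UMIs and at most 15% mitochondrial UMIs were kept. The 8% of them with the highest Scrublet score in each library were then removed as doublets, since the automatic threshold marked 0 cells in 2 libraries. Cells were clustered with scanpy 1.11.5 on 2000 variable genes without the members and named from fixed markers. Counts were summed per library and type and tested with edgeR 4.0.16 (quasi-likelihood, TMM scaling, Benjamini-Hochberg adjustment), with all genes that passed its count filter. DESeq2 1.42.0 was an alternative. The procedure was tested on simulated data.

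All members are accounted for. Values in each library are given for the 2 members of each role with the highest level in smooth muscle cells, for called members, and for up to 3 members per genotype comparison with the smallest unadjusted p under 0.05. Members and gene lists were chosen with earlier results of these data known. Alternatives without pericytes that held smooth muscle marker UMIs and without cells of at least 1% haemoglobin UMIs were chosen after seeing the data. Intervals cover counting error only.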

Additional observations from a re-analysis of the deposited data

Results flagged for a closer look

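The genotype difference of Tagln differed between smooth muscle cells and pericytes by 1.00 ± 0.20 (log2 ± SE, adjusted p = 0.0379, edgeR's interaction test on library sums). This result stood out because the difference itself was tested and passed the threshold, with lower Tagln in both mutant libraries in pericytes and overlapping genotypes in smooth muscle cells. The call was lost when WT A, mutant A or mutant B was left out. It was also lost with stricter cells and without the pericytes that held smooth muscle marker UMIs.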

How the results depend on the processing

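The counts of called members kept within 1.5 times their value in most alternatives. With the set letter as a replicate block, 1 member was called in pericytes (Tagln, adjusted p = 7.80e-05) and 1 in alveolar fibroblasts (Acta2, log2 difference 0.90, adjusted p = 0.00414), where the analysis without it called 0. Same-letter libraries deviated together with r = 0.25 in smooth muscle cells, 0.30 in pericytes, 0.16 in myofibroblasts, 0.26 in alveolar fibroblasts, 0.13 in adventitial fibroblasts and 0.41 in endothelial cells, but with 2 pairs and an unexplained letter the pairing is not established. Leaving out a library gave 0 to 1 called members in alveolar fibroblasts and 0 to 1 in the test of the difference between smooth muscle cells and pericytes. That test called 0 members with stricter cells and 0 without pericytes that held smooth muscle marker UMIs. Between myofibroblasts and alveolar fibroblasts, Cald1 changed sign without the count filter (-0.030), and leaving out a library put it at -0.018 to 0.14. Itga7 ran from -0.0060 to 1.34 in the same way, with the negative values of both from leaving out WT B, and the cause was not tested. Vcl was called between smooth muscle cells and pericytes once pericytes with smooth muscle marker UMIs were left out (adjusted p = 0.0459). The mutant minus WT share of smooth muscle cells ran from -0.168 to -0.0787 percentage points. The bounds against pericytes with each library left out were chosen after seeing the data.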

Other observations

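Neutrophils held Acta2 at 68.7, 107, 62.9 and 70.2 CPM in WT A, WT B, mutant A and mutant B, from 796 UMIs. An Acta2 UMI was found in 106 of 630, 145 of 506, 284 of 1895 and 58 of 380 neutrophils. In the same cells Tagln had a mean of 10.8 CPM, Myl9 of 3.11 CPM and Myh11 of 1.87 CPM, while Myl6 (1137 CPM), Flna (178 CPM), Actn1 (170.2 CPM) and Pdlim7 (129.8 CPM) had higher means than Acta2. In general capillary cells Acta2 stood at 1.38, 1.66, 2.29 and 1.07 CPM, below every neutrophil value.

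Mustn1 was also read in endothelial cells, at 159 ± 32.4 CPM (SD, n = 4) in venous cells and 52.9 ± 5.25 CPM in general capillary cells. All 4 venous values lay above all 4 general capillary values. Pericytes held less Mustn1 than either, 25.0 to 35.7 CPM. These genes and types were singled out after their values were seen.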
